A study of Mus musculus with 2 samples.

Results

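Integrins and laminins are the receptors and the ligands of one adhesion system, and all 38 genes annotated for their chains, of 55536 annotated genes in all, were examined in heart tissue. They were taken by symbol: every gene with a protein-coding transcript and a symbol of an integrin alpha chain, an integrin beta chain or a laminin chain. The binding proteins Itgb1bp1, Itgb1bp2, Itgb3bp and the related Itgbl1 were left out and are given with the partner genes. The rule itself uses no measured value. The 38 genes comprise 18 integrin alpha chains, 9 integrin beta chains and 11 laminin chains.

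The samples were hearts of male mice aged 8 to 10 months from 5xFAD crossed with CAST. 5xFAD is a transgenic line made to model brain amyloid, whose transgenes are driven by the neuronal Thy1 promoter, and CAST derives from wild-caught mice. The labels do not say whether the transgenes were carried, and there was no other genotype, age or treatment. All samples form 1 group of 2 libraries, called library 1 and library 2 after their biological replicate numbers. Their tissue samples are separate but share a donor identifier, and the spread may thus be technical rather than between animals. Each was made from 300 ng of total RNA with ribosomal RNA reduced and held 39668202 and 36926511 expected counts over annotated genes. Because a single group was sampled, no comparison of conditions exists and no p-value is given.

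An integrin is a pair of membrane-spanning chains, 1 alpha and 1 beta, that binds the matrix outside the cell and, through the short tail of the beta chain, the actin cytoskeleton inside. A laminin is a cross-shaped trimer of 1 alpha, 1 beta and 1 gamma chain that forms the sheet of the basement membrane. Cardiomyocytes are each wrapped in a basement membrane. Their main laminin receptors are integrin alpha7 beta1 and dystroglycan, and loss of the laminin alpha2 chain (Lama2) or of Itga7 causes muscular dystrophy.

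Splice forms that change the receptor itself are known for Itgb1, Itga7 and Itga6, and the exons that set them apart are shown first because the transcript shares below turn on them. All sequences are from the GENCODE M21 transcripts on mm10 and are printed 5′ to 3′. In each, the 24 lower-case bases are shared by both forms and lie directly upstream of the exon, and the capitals mark bases that code for protein in that form and not in the other of its pair. The cytoplasmic tail of the beta1 chain ends in one of 2 ways. Itgb1-201 carries the common tail known as beta1A, in 63 coding bases of its last exon (chr8:128732023-128732085, plus strand). Itgb1-204 carries an added exon of 81 bases with the tail known as beta1D, the form of striated muscle, in 72 coding bases (chr8:128726983-128727054, plus strand).
Itgb1-201: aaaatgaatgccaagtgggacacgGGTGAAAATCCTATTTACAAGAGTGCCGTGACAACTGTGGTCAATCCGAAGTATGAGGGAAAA
Itgb1-204: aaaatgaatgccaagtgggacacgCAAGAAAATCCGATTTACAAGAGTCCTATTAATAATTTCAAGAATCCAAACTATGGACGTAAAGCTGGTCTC
Aligned from their first base without gaps, both tails had the same base at 41 of 63 positions. Itgb1-204 is the only one of the gene's 4 annotated transcripts that holds its exon.

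The extracellular part of the alpha7 chain contains one of 2 mutually exclusive exons, 120 bases in Itga7-201 (chr10:128941822-128941941, plus strand) and 132 bases in Itga7-202 (chr10:128941445-128941576, plus strand). The exons agreed at 29 of 120 positions aligned without gaps, and their GC content was 49.2% and 70.5%.
Itga7-201: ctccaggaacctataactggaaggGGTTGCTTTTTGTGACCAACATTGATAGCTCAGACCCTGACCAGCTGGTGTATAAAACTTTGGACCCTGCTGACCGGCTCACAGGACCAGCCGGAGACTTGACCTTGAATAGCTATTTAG
Itga7-202: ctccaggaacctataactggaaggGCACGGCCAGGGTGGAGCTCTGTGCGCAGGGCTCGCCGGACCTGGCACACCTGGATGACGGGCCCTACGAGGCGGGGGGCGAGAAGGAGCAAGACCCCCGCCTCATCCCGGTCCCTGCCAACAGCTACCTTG
Inside the cell, Itga7-204 holds a 113-base exon for the tail known as alpha7A (chr10:128956611-128956723, plus strand), whereas Itga7-201 and Itga7-202 skip it and encode alpha7B. The alpha6 chain has the matching pair of tails. Itga6-201 encodes alpha6A, with 105 coding bases in its 130-base exon (chr2:71853534-71853638, plus strand), and Itga6-202 encodes alpha6B, with 159 coding bases (chr2:71855854-71856012, plus strand).
Itga7-204: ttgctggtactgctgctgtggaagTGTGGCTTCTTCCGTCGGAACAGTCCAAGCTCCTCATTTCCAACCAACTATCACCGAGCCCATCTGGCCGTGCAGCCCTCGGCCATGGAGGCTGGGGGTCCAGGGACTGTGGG
Itga6-201: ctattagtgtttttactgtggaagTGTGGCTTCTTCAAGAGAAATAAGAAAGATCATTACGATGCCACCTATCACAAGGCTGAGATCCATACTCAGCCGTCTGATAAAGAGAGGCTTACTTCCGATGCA
Itga6-202: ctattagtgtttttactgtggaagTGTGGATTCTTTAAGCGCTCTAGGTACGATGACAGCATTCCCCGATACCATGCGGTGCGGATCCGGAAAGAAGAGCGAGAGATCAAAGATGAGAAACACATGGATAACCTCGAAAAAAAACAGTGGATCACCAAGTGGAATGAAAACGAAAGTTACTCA
The exons of Itga6-201 and Itga7-204 agreed at 37 of 105 positions over the longest stretch that both cover.

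Of the 38 genes, 20 (52.6%) reached 1 TPM in each library. TPM is a level divided by transcript length and scaled to a fixed total per library. Among all 22015 nuclear protein-coding genes the share was 48.8%, so the families as a whole were detected about as often as coding genes in general. Detection was 12 of 27 for integrins and 8 of 11 for laminins. Together the genes held 0.157% (library 1) and 0.149% (library 2) of the TPM that nuclear protein-coding genes hold. Nuclear protein-coding genes themselves held 32.9% of the TPM of annotated genes in each library. All TPM values and the limit of 1 TPM are therefore lower than on a scale of coding genes alone. A few chains of each class held most of it, and the 15 genes with a mean under 1 TPM ranged from 0 to 0.59. Values are given for library 1 and then library 2, followed by the mean ± SD of both.

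**Figure D1:**
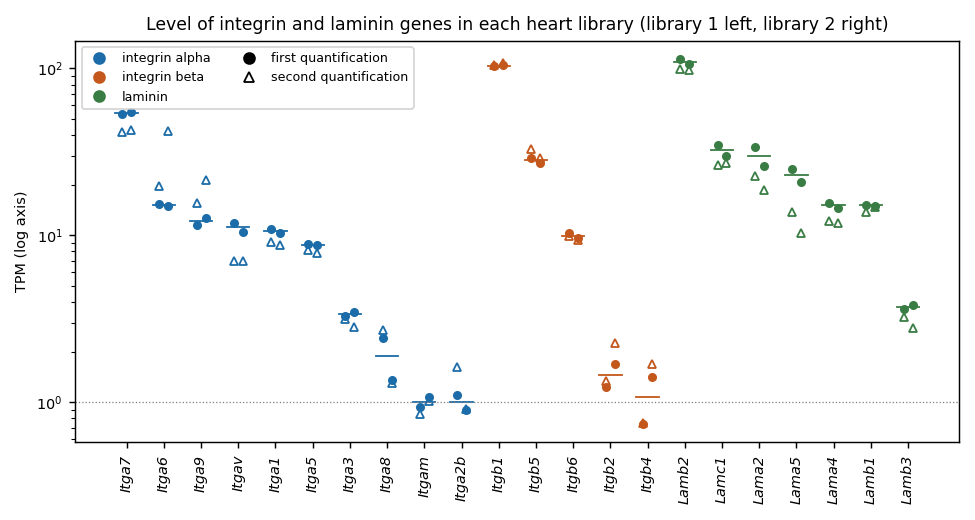
TPM (log axis) of 22 of the 23 integrin and laminin genes with a mean TPM of at least 1, with library 1 at the left and library 2 at the right of each gene. Filled circles are the first quantification, open triangles the second, lines the mean of the first; Lamb2, Itgb1 and Itga7 stand above all others in each library, and Itga6 in library 2 is the largest departure between the quantifications.

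Itgb1, the beta chain that pairs with most matrix-binding alpha chains, stood at 103.40 and 104.46 TPM (103.93 ± 0.75, SD, n = 2). It is on chromosome 8 (128685654 to 128733200, plus strand) and ranked above 97.9% of nuclear protein-coding genes. Itgb5, whose product pairs with the alphav chain and binds vitronectin, followed at 28.91 and 27.25 TPM. Itgb6, also a partner of the alphav chain and best known from epithelia, stood at 10.27 and 9.62 TPM. By summed TPM of the 9 beta chains, Itgb1 held 71.4% ± 0.716, Itgb5 19.3% ± 0.752 and Itgb6 6.83% ± 0.296.

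Genes of epithelial cells were low beside Itgb6, but not all were at 0. Epcam had 0 and 5 counts, Cdh1 0 and 4 counts, and the keratin Krt8 stood at 0.40 and 0.60 TPM. The keratin Krt19 stood at 1.45 and 2.41 TPM. The mesothelial gene Upk3b stood at 6.0 and 4.75 TPM, and the list of 6 mesothelial and epithelial markers summed to 14.57 and 13.49 TPM. The cell type that gave the Itgb6 reads was not tested. In tissue RNA, the number of cells of a type and the RNA per cell cannot be told apart.

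The other beta chains were low. Itgb2, the chain shared by leukocyte integrins, stood at 1.24 and 1.69 TPM. Itgb4, the hemidesmosome chain that pairs with alpha6, stood at 0.74 and 1.41 TPM. Itgb3, which pairs with alphav and, on platelets, with the chain of Itga2b, stood at 0.69 and 0.49 TPM. Itgb8 and Itgb7 lay lower still. Itgb2l had 0 counts in both libraries, which allows up to 3 counts, or 0.0471 and 0.0500 TPM.

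Among alpha chains, the laminin receptors led. Itga7, the main muscle laminin receptor (chromosome 10, 128933818 to 128958282, plus strand), stood at 53.46 and 55.11 TPM (54.28 ± 1.17). Itga6, a laminin receptor of endothelial and epithelial cells, stood at 15.38 and 14.96 TPM. Itga3, the third of the group, stood at 3.27 and 3.46 TPM. Both libraries lay close together for each. The group held 60.0% ± 0.862 of the summed TPM of the 18 alpha chains, of which Itga7 alone held 44.7% ± 0.987.

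Receptors for fibronectin, vitronectin and related ligands with an RGD peptide held 18.9% ± 1.58 of alpha-chain TPM. Itgav, the vitronectin receptor chain, stood at 11.89 and 10.53 TPM, and Itga5, the fibronectin receptor chain, at 8.85 and 8.75. Itga8 stood at 2.44 and 1.36 TPM, and Itga2b, the platelet fibrinogen receptor chain, at 1.10 and 0.90. Of 5 platelet markers, 2 reached 1 TPM in each library, Pf4 at 9.58 and 14.29 and Ppbp at 3.90 and 3.55 TPM, and the list summed to 14.17 and 18.52 TPM. The receptor genes Gp9, Gp1ba and Gp1bb were at or below 0.50 TPM. The part of blood platelets in the Itga2b level was not tested.

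Of the 4 collagen receptor chains, only Itga1 passed 1 TPM, at 10.89 and 10.32. Itga2 is its neighbour on chromosome 13, 20.996 kb away and on the same strand, and had a mean of 0.33 TPM against 10.6 for Itga1. The mean was 0.405 TPM for Itga11 and 0.105 for Itga10. Itga1 overlaps Pelo and Gm49395 on its own strand, at means of 6.15 and 2.72 TPM, so part of its reads could be split between them. Of the Itga1 TPM, 39.7% lay in Itga1-206, an entry of 3321 bases annotated as a retained intron. Protein-coding transcripts alone gave Itga1 5.75 and 5.21 TPM. Itga9, whose product binds tenascin and VCAM-1, stood at 11.60 and 12.62 TPM, and its relative Itga4 averaged 0.50 TPM.

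The 5 leukocyte alpha chains held 1.35% ± 0.146 of alpha-chain TPM. Itgam, a marker of macrophages and neutrophils, stood at 0.94 and 1.07 TPM. Macrophage markers were present, at a sum of 36.13 and 38.15 TPM over 6 genes. No T cell, neutrophil or B cell marker reached 1 TPM in both libraries, and their lists summed to 0.85 and 0.23, 0.81 and 0.33, and 0.58 and 1.13 TPM. Itgal averaged 0.435 TPM, and Itgae, Itgax and Itgad were below 0.1. Itgad, with 2 counts in each library, spans Cox6a2 on the opposite strand, which averaged 1046 TPM.

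Laminin alpha chains showed 3 members at similar scale and 2 near 0. Lama2, the alpha chain of the muscle basement membrane (chromosome 10, 26980036 to 27619758, minus strand), stood at 33.86 and 26.07 TPM (29.96 ± 5.51). Lama5, an alpha chain of vessel and epithelial basement membranes (chromosome 2, minus strand), stood at 24.85 and 20.96 TPM, and Lama4, the alpha chain typical of blood vessels, at 15.70 and 14.61 TPM. Their shares of laminin alpha TPM were 43.2% ± 2.10, 33.2% ± 0.531 and 22.1% ± 1.88. The order of Lama5 over Lama4 did not hold by the second quantification, at 26.3% and 26.5%, nor with transcripts of at least 2000 bases, at 27.3% for each. Lama1, typical of the embryo, and Lama3, typical of skin, held 1.49% ± 0.319 together, with Lama1 at 0.75 and 0.43 TPM. In TPM, library 1 was above library 2 for every laminin alpha chain. For Lama1, with 155 and 127 counts, the difference in scaled counts lay within counting error.

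The other laminin chains were each dominated by 1 gene. Lamb2, the beta chain of adult muscle, synapse and kidney (chromosome 9, 108479736 to 108490530, plus strand), was the highest of all 38 genes at 113.76 and 105.80 TPM (109.78 ± 5.63). It held 85.4% ± 0.552 of laminin beta TPM. Lamb1 stood at 15.28 and 14.89 TPM and Lamb3, a chain of epidermal laminin, at 3.62 and 3.82 TPM. Lamb3 overlaps G0s2 and Hsd11b1 on the opposite strand, at means of 25.4 and 5.78 TPM, and whether counting used strand is not given in the sources used here. Lamc1, the common gamma chain, stood at 34.56 and 30.03 TPM and held 89.4% ± 2.04 of laminin gamma TPM. Lamc3 averaged 0.325 TPM.

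**Figure D2:**
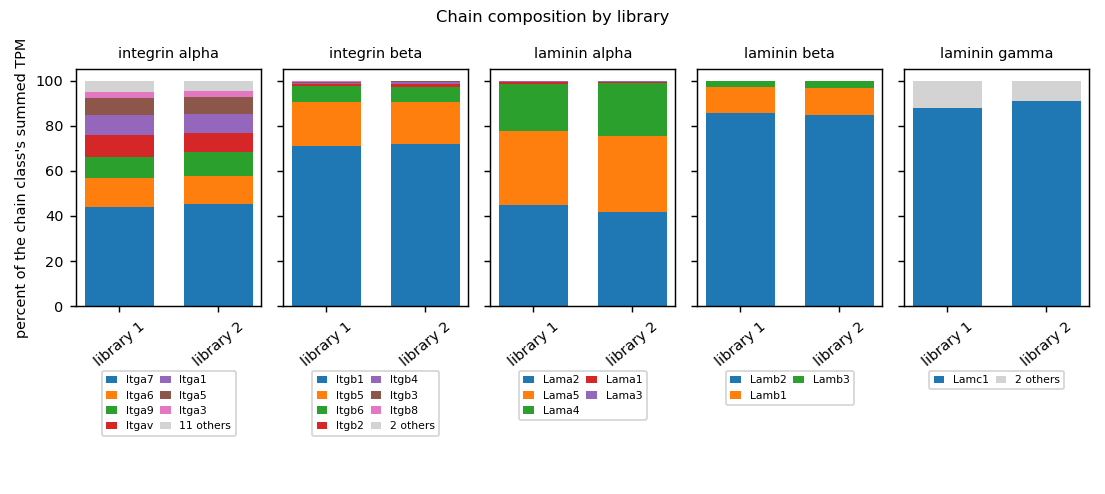
Share of each gene in the summed TPM of its chain class, in percent, in library 1 and library 2. Itga7, Itgb1, Lama2, Lamb2 and Lamc1 form the largest block of their class in both libraries, and laminin alpha is the class in which 3 genes each hold over 20%.

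In the order of levels, several neighbours overlapped between libraries. Itga7 was separate from its neighbours, while the ranges of Lamc1, Lama2 and Itgb5 overlapped in turn. Itga6, Lama4 and Lamb1, with means of 15.2, 15.2 and 15.1 TPM, could not be ordered. The ranges of Itga9 and Itgav overlapped, as did those of Itgav and Itga1. Lamb2 lay above Itgb1 in both libraries, but the second quantification put Itgb1 first, at 106.0 against 98.4 TPM. That second quantification is also the authors', and it left 19 of the 23 genes within 1.5 times of the first. It was over 1.5 times higher for Itga6 (30.9 TPM) and Itga9 (18.5 TPM) and lower by more than that for Itgav (7.05 TPM) and Lama5 (12.04 TPM).

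Transcript tables were used to see which annotated form carried each gene's level. Of the 15 genes with a mean TPM of at least 5, 13 had the same leading transcript in both libraries and both quantifications, and all 15 that led in library 1 of the first quantification were protein-coding. The exceptions were Itga6 and Itgb5. By the first quantification the non-coding Itga6-203 stood at 5.81 and 5.29 TPM, against 7.64 and 5.21 TPM for the coding Itga6-201. Itga6-203 thus led in library 2, and the non-coding Itga6-205 led that library in the second quantification. Protein-coding transcripts alone gave Itga6 a mean of 8.68 TPM, against 15.2 with all entries. Itgb5-202 led in the first quantification, at 16.33 and 11.42 TPM, and Itgb5-201 in the second, at 10.5 and 10.3 TPM, level with Itgb5-207. In the first quantification the leading transcript held over 90% of the TPM for Lamb1, Itga5 and Itga9, and under 50% for Itgav, Itgb6, Lama2, Itga6 and Itgb5. By the second it held 56.0% for Itga9, 71.1% for Itgav and 73.0% for Lama2, while Itga6-201 held 21.8% and Itgb5-202 22.7%.

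Both beta1 tails printed above were present. Itgb1-201, with beta1A, stood at 69.62 and 71.78 TPM, and Itgb1-204, with beta1D, at 31.49 and 30.86 TPM. Itgb1-204 thus made up 30.6% ± 0.762 of both by the first quantification, and 36.4% ± 0.587 by the second. The libraries differed by about 1 percentage point. The entry Itgb1-204 is 711 bases long against 3815 for Itgb1-201, so its TPM rested on 638 and 588 counts against 8576 and 8319. Reads from bases that Itgb1-204 shares with Itgb1-201 can be split between both, so its counts need not come from the 81-base exon. Reads from parts of a longer beta1D transcript outside those 711 bases can only be assigned to other entries. The share is therefore one of annotated entries and not of whole molecules.

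For alpha7, the extracellular exon of Itga7-201 was the leading choice. Itga7-201 stood at 37.07 and 37.35 TPM and Itga7-202 at 5.01 and 5.32 TPM, both entries being of nearly equal length. Itga7-201 held 87.8% ± 0.397 of the pair by the first quantification, and 86.6% ± 0.671 by the second. The alpha7A entry Itga7-204 was not settled by the files. By the first quantification it stood at 10.32 and 11.67 TPM, and by the second at 0.559 and 0.336 TPM. On average it held 22.8% and 1.25% of its sum with Itga7-201, which leaves out Itga7-202, also alpha7B. Of all Itga7 TPM, Itga7-204 held 20.2% and 1.07%. Itga7-204 is an entry of 984 bases, with 302 and 322 counts in the first quantification.

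For alpha6, the libraries themselves disagreed. Itga6-201, with alpha6A, stood at 7.64 and 5.21 TPM and Itga6-202, with alpha6B, at 1.03 and 3.26 TPM. The alpha6A entry held 88.1% of the pair in library 1 and 61.5% in library 2, and 77.8% and 56.4% in the second quantification. In both quantifications alpha6A held more than alpha6B in each library, and alpha6B held a larger share in library 2 than in library 1. The non-coding entry Itga6-205, of 443 bases, stood at 0.36 and 0.79 TPM by the first quantification, against 5.31 and 27.5 TPM by the second. By subtraction, that entry made up the higher Itga6 level of the second.

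**Figure D3:**
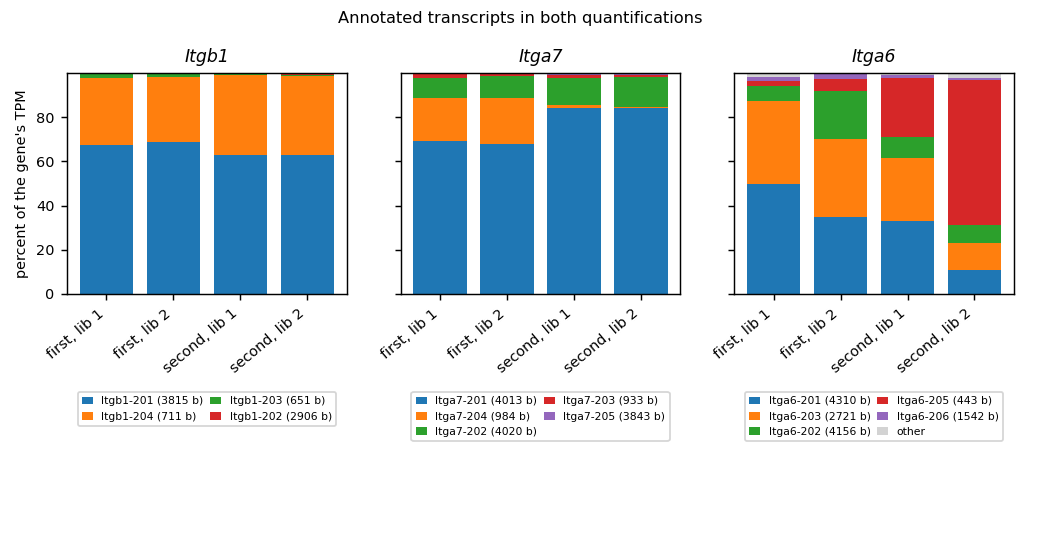
Percent of the gene's TPM in each annotated transcript of Itgb1, Itga7 and Itga6, by quantification and library, with transcript length in bases (b) in the key. The blue and orange blocks of Itgb1 are alike in all 4 bars; the orange Itga7-204 block is thin in the second quantification, and the red Itga6-205 block reaches 65.5% in the second quantification of library 2.

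Short annotated entries carried part of the TPM of several genes, because a level per length gives few reads on a short entry a high value. Transcripts under 2000 bases held 53.4% of the TPM of Itgav, 44.4% of Lama5, 36.8% of Lamb2, 33.1% of Lama2, 31.9% of Itgb1 and 28.8% of Lamc1. For Itgb1 most of this is the beta1D entry. For Lama2, 16.8% and 14.8% lay in Lama2-204 and Lama2-206, entries annotated as retained introns, against 2.6% and 4.12% in the second quantification. Lama2-202, also annotated as a retained intron, went the other way, with 1.21% in the first and 13.8% in the second. For Lamb2, the 345-base Lamb2-206 stood at 31.04 and 29.07 TPM by the first quantification but was listed at 0 in the second, whereas the 332-base Lamb2-204 stood at 0 in the first and 25.1 and 32.2 TPM in the second. With longer transcripts alone, Itgb1 stood at 70.8 TPM, Lamb2 at 69.4, Itga7 at 42.6, Lamc1 at 23.0, Lama2 at 20.0 and Lama5 at 12.7 TPM.

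**Figure D4:**
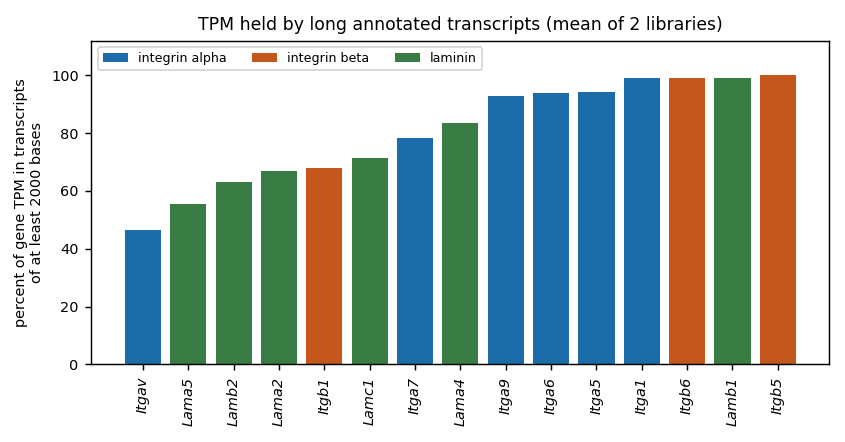
Percent of the gene's TPM held by annotated transcripts of at least 2000 bases, as the mean of both libraries, for the 15 genes with a mean TPM of at least 5. The bars run from 46.6% for Itgav to 100% for Itgb5, and the laminins lie between them, from 55.6% for Lama5 to 99.3% for Lamb1.

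Differences between the libraries were read from expected counts scaled by library total, with an exact (Clopper-Pearson) 95% interval that covers counting error only. A gene needed 10 counts in either library and a mean of 1 TPM, which 23 of the 38 genes passed. The interval lay above 1 for 2 of the 23 and below 1 for 7, and it included 1 for 14. Over all 11940 genes that passed, the share was 12.8% above and 10.4% below. The libraries are replicates with no order, so the direction has no biological meaning of its own.

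Of the 8 laminins that passed the filter, 5 were lower in library 2 and 0 higher, against 10.4% and 12.8% of all genes. The interval is narrower for genes with more counts, so these shares do not compare like genes. Among the 5 were Lama5, Lama2, Lama4 and Lamb2. The ratio of library 2 to library 1 was 0.753 (interval 0.723 to 0.784) for Lama5. It was 0.910 (0.876 to 0.945) for Lama2, 0.915 (0.863 to 0.970) for Lama4 and 0.948 (0.925 to 0.972) for Lamb2. Lamc1, at 1.01, Lamb1 and Lamb3 included 1, although Lamc1 stood at 34.56 and 30.03 in TPM. Among the 15 integrins that passed, Itgb5 (0.931) and Itga1 (0.930) were lower, against 10.4% of all genes. Itga9 (1.17, interval 1.11 to 1.24) and Itgb1 (1.04, interval 1.01 to 1.07) were higher, against 12.8% of all genes. No gene passed a 2-fold difference on log2(TPM + 1), against 0.603% of the 11940. In the second quantification 1 did, Itga6, at 19.9 and 42.04 TPM. The median difference on log2(TPM + 1) was -0.07 for the 23 genes and -0.01 for the 11940. By scaled counts, the median ratio was 0.986 for the 23 genes and 1.007 for the 11940.

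**Figure D5:**
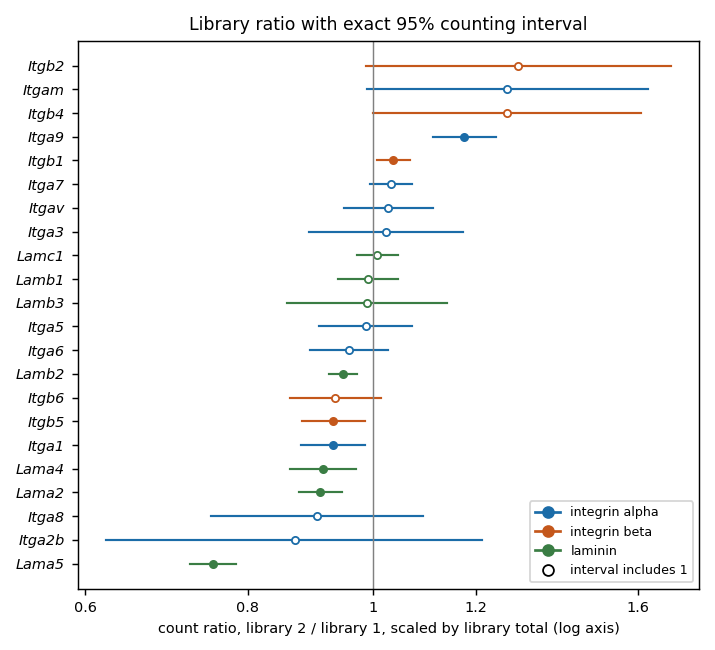
Ratio of scaled expected counts, library 2 over library 1 (log axis), with exact 95% counting intervals, for 22 of the 23 genes that passed the filter. Filled points are genes whose interval leaves 1; all filled laminin points lie left of 1, with Lama5 farthest, at 0.753.

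Cell type markers also differed between the libraries. Beside the counts below, 12.8% of all 11940 genes that passed the filter were higher in library 2 and 10.4% lower. All 6 endothelial markers, among them Cdh5 (38.31 and 35.04 TPM), were lower in library 2, at a median ratio of 0.901. All 6 adipocyte markers were higher, at a median ratio of 4.12 and a sum of 10.61 and 39.36 TPM, and so were 4 of 5 atrial markers, with a sum of 1169 and 1559 TPM. Fibroblast markers had 2 of 6 lower and none higher. Of 6 cardiomyocyte markers, 2 were higher and 3 lower, with a sum of 19039 and 19151 TPM. Of 5 macrophage markers that passed the filter, 2 were higher and 0 lower. Their part in the laminin and integrin differences was not tested.

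Partner genes were taken from lists that span the same adhesion system. Of 24 activators, adaptors and related proteins of integrin adhesions, 22 reached 1 TPM in both libraries, against 48.8% of nuclear protein-coding genes. Among the 22 partner genes, 2 (Ilk and Zyx) were higher in library 2, 2 (Lims2 and Pxn) lower, and 18 included 1. The shares over all 11940 genes were 12.8% higher and 10.4% lower. Tns1, a tensin that ties integrin tails to actin, stood at 263 and 262 TPM. Itgb1bp2, the muscle protein melusin that binds the beta1 tail, stood at 72.0 and 73.8 TPM, and the kindlin Fermt2, which activates integrins, at 65.2 and 67.6 TPM. Fermt1, the kindlin of epithelia, had 0 counts in both libraries, and the blood cell kindlin Fermt3 stood at 1.26 and 1.5 TPM. Lims1, a scaffold partner of Ilk, stood at 44.04 and 45.17 TPM, Parvb at 36.0 and 33.3 TPM, and vinculin (Vcl) at 34.3 and 34.1 TPM. The other proteins named for integrins were lower, with Itgb1bp1 at 13.3 and 14.4, Itgb3bp at 1.91 and 1.52 and Itgbl1 at 1.64 and 1.46 TPM.

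Of 17 other basement membrane and laminin-binding genes, 15 reached 1 TPM in both libraries, against 48.8% of nuclear protein-coding genes. Among the 15, 3 were lower in library 2 and 0 higher, against 10.4% and 12.8% of all 11940 genes. Dag1, the dystroglycan that binds laminin alpha2 beside the integrins, stood at 98.45 and 91.33 TPM and was among the lower 3. The others were Col4a1, at 61.12 and 54.32, and Col4a2, at 38.93 and 33.34 TPM, the chains of the common type IV collagen. Bcam, a receptor for laminin alpha5, stood at 62.88 and 62.77 TPM, and the proteoglycan Hspg2 (perlecan) at 56.11 and 52.05. Col15a1 stood at 15.32 and 19.87 TPM, although its ratio of scaled counts was 0.966, with an interval that included 1.

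Of 18 integrin ligands outside the laminins, 10 reached 1 TPM in both libraries, near the share of 48.8% of nuclear protein-coding genes. Another 4 ligands had 0 counts in both libraries (Madcam1 and the fibrinogen genes Fga, Fgb and Fgg). Vwf, the endothelial ligand of platelet integrins, led at 26.3 and 26.5 TPM. Fibronectin (Fn1), the ligand of alpha5 beta1, stood at 8.78 and 11.46 TPM and was the 1 ligand that was higher in library 2. Fibrillin-1 (Fbn1) stood at 8.19 and 6.33 TPM and was the 1 that was lower. Over all 11940 genes, 12.8% were higher and 10.4% lower. These calls use scaled counts, from which TPM can differ, as for Vcam1, with a count ratio of 0.992. Icam2, a ligand of leukocyte integrins, stood at 6.58 and 6.66 TPM, Vcam1, the ligand of Itga4 and Itga9 products, at 5.08 and 7.02, and vitronectin (Vtn) at 6.09 and 5.86 TPM.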

How the data were processed

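Total RNA of 2 heart libraries was quantified by the authors on mm10 and GENCODE M21, as the deposited readme states; no source used here names the tools. Per the file headers, the first quantification gives expected counts (estimated counts in which shared reads are split), TPM, FPKM and the percent of a gene in each transcript; the deposited FPKM served as an alternative, and the deposited percent values were not used. The deposited second quantification lists estimated counts and TPM for each transcript, and these were summed per gene here; its totals were 42828754 and 38830955. Coordinates and transcript sequences came from the GENCODE M21 files.

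The labels give 1 group, so no test between groups was made. The gene lists and the rule for members were set with earlier results of these data known, although the rule uses only symbol and transcript type. Genes with a mean TPM of at least 1 are given with both values, although a few results are not reported here, the rest by range or mean with the highest 2 in full, up to 6 genes from each partner list, and the genes with the largest library ratios. Itgb3bp, Itgbl1 and Fermt3, Cdh1 and other genes named as markers serve as context and were chosen after their values were seen where no list takes them. Library ratios were rounded expected counts scaled by the totals of annotated genes, with an exact 95% interval. A count of 0 allows 3 counts; intervals and floors cover counting error only. Alternatives changed the quantification, unit, transcripts summed, thresholds, pseudocount and scaling (edgeR 4.0.16 TMM and DESeq2 1.42.0 size factors, 14851 genes). The limit of 2000 bases was added after seeing the data. The interval step was run on simulated counts with counting error alone, the error it assumes. That run cannot show how it behaves with other variation between libraries. Python 3.11.15, pandas 2.3.3, scipy 1.17.1 and R 4.3.3 were used.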

Additional observations from a re-analysis of the deposited data

How the results depend on the processing

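The count of detected genes stayed between 15 and 29 against 20. The highest of these came when TPM was rescaled to the total of nuclear coding genes, which put Itgb1 at 317.7 against 103.93 TPM. The share of all coding genes detected on that scale was not computed. The share of Lama2 stayed within 1 SD under every alternative run. Other shares moved by more than 1 SD. In the second quantification Itgb1 held 70.2% of beta chains, Itga7 34.1% of alpha chains and Lamc1 84.2% of gamma chains. By expected counts, not divided by length, Itgb1 held 68.5%, Itga7 35.9%, the laminin-binding alpha chains 49.0%, Lamb2 80.3% and Lamc1 96.4%. With protein-coding transcripts alone Itga7 held 50.6%, the laminin-binding chains 61.8% and Lamc1 95.5%. With transcripts of at least 2000 bases, a limit chosen after seeing the data, Itgb1 held 63.3%, Itga7 43.0%, Lamb2 79.5% and Lamc1 95.2%. Each of these genes remained the largest of its class. The cause of these moves was not tested, other than that counts are not divided by length. Leaving out 1 library left Itgb1 at 70.9% to 71.9% and Itga7 at 44.01% to 45.4%.

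The number of genes higher in library 2 was 2, and it was 1 with TMM scaling, which lost Itgb1, and 4 in the second quantification, which added Itga7 and Itgb2; 7 were lower under all scalings and 10 with no filter on low values. All 9 genes called at first kept their direction in the second quantification, and 1 gene passed a 2-fold difference there against 0. The median log2 difference was -0.0768 with a pseudocount of 0.1, -0.0434 in the second quantification and -0.0375 with no filter. No paired analysis was possible because there is only 1 group. With 2 libraries, an SD is itself poorly known, and genes with few counts, such as Itgad and Itgae, are set by counting error.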
